A study of Rattus norvegicus with 3 samples.

Results

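The nuclear genes for the subunits of the mitochondrial respiratory chain and ATP synthase were followed across 3 arrays of rat cerebellar cortex. Members were the genes whose RefSeq symbol begins with Nduf and a letter of the subunit families, Uqcr, Cox4 to Cox8 or Atp5, or is Sdha, Sdhb, Sdhc or Sdhd. They numbered 80 of the 16654 genes that the array accessions could name, and comprised 79 subunit genes and 1 pseudogene, Cox6c-ps1. RefSeq lists 209 symbols of this pattern for the rat, of which 99 are pseudogenes, and those without a matched probe were not analysed here. Complex I had 32 of the subunit genes, complex II had 4, complex III had 8, complex IV had 18 and complex V had 17. Ndufa4 and Ndufa4l2 carry a complex I name but their proteins belong to complex IV, where they were counted.

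All animals were male Wistar rats, 9 weeks old, and all tissue was taken 2 days after surgery. In the MCAO group the right middle cerebral artery was blocked by a filament, which was later withdrawn, and rats were kept only if their neurological deficit after surgery lay in a set range. The contralateral sample was the left and the ipsilateral sample the right cerebellar cortex of this group, and the control sample was the left cerebellar cortex after sham surgery. Each sample was cerebellar cortex combined from 4 rats, and its RNA was hybridised to 1 array, so there was no replicate and no test, and every difference is one between pools. Both MCAO samples came from the same 4 rats, and both ratios to the control group use the same control array. The middle cerebral artery does not supply the cerebellum, and the design compares the cerebellar side across from the infarct with the side of the infarct and with the control group.

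The respiratory chain passes electrons from NADH (complex I) and succinate (complex II) through complex III to oxygen at complex IV, and the proton gradient built on the way drives ATP synthase (complex V). All complexes but complex II mix subunits encoded in the nucleus with subunits encoded in mitochondrial DNA, and the nuclear genes share regulators such as the nuclear respiratory factors. Neurons of the cerebellar cortex depend on this pathway for most of their ATP.

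The tissue label was set against cell type markers. All 10 granule cell markers, all 10 Purkinje cell markers and all 6 Bergmann glia markers read on the arrays were well above background on each array, a call the scanner software makes for a spot against its local background. The summed signal of the granule cell list was 112478 on the contralateral, 113029 on the ipsilateral and 130598 on the control array, and its most abundant gene was Cbln1. The Purkinje cell list summed to 223386, 222225 and 203402 in the same order, led by Itpr1, and the Bergmann glia list to 24708, 24237 and 23906, led by Slc1a3. Median log2 ratios to the control group were 0.017 and -0.013 for granule cells, 0.14 and 0.089 for Purkinje cells, and 0.044 and 0.070 for Bergmann glia, contralateral side first. The markers of cerebellar cortex were thus present in each sample, and by sum and median their lists differed less between the arrays than the lists of choroid plexus and blood. Single genes lay further out, as Grm4 of granule cells at -0.87 and -0.76 and Fabp7 of Bergmann glia at -0.795 and -0.89. Both were chosen after their values were seen, and 5 of the 10 granule cell and 4 of the 6 Bergmann glia markers were above 0 on each side. Choroid plexus markers summed to 10846, 77071 and 34213, led by Ttr, with medians of -0.71 and 0.56, and erythroid markers to 1359, 1211 and 2765, led by Hba-a1, with medians of -1.03 and -0.88. The signal of these lists thus differed between the arrays. Their part in the subunit values was not tested. Single choroid plexus genes went both ways in the ipsilateral cortex, with Ttr at 1.19 and Slc4a5, chosen after its values were seen, at -1.20. In pooled tissue, fewer cells of a type and less RNA per cell cannot be told apart.

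Values below are log2 signals, with each array shifted to the same 75th percentile, and a log2 ratio is the difference between arrays. The members were read by 106 probes in 116 spots, none of them marked as an outlier or saturated, and 59 of the subunit genes had a single probe. Of the 79 subunit genes, 78 were well above background by every probe on all 3 arrays. The exception, Cox8c, was so on the ipsilateral array only and entered the counts through that array. The scanner software gives each ratio an error, with a median of 0.20 on the log2 scale over the 78 genes. That error covers the array and not the rats. For Cox8c it was larger, at 2.05 for the contralateral and 1.48 for the ipsilateral ratio to the control group. Spots of a probe repeated within an array gave a smaller spread, 0.066 for a ratio. Its best example among the subunits was the Atp5mc2 probe with 10 spots, whose contralateral log2 ratio to the control group was 0.021 with an SD of 0.043 between spots.

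The subunits as a group were nearly level across the arrays. The median log2 signal of the 78 genes was 14.16 for the contralateral, 14.22 for the ipsilateral and 14.10 for the control array. With this scaling the ipsilateral array held the highest value for 53 of these genes and the control array the lowest for 45. The median log2 ratio over the 79 genes was 0.018 in the contralateral and 0.047 in the ipsilateral cerebellar cortex, signs that turned with no scaling and with quantile normalization, against medians of -0.0001 and 0.026 over the 13361 named genes detected on at least 1 array. In the contralateral cortex 51 subunits were above 0, where 50% of all genes were, and in the ipsilateral cortex 62 were, where 55% of all genes were. The log2 ratio of the contralateral to the ipsilateral cortex had a median of -0.042, with 17 subunits above 0 beside 46.4% of all genes, whose median was -0.012.

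Large differences were few among the subunits, as among other bright genes. The study's threshold was a log2 ratio above 1 or below -1. No subunit passed it in the contralateral cortex, where 5.47% of all genes did, and 1 did in the ipsilateral cortex, where 7.1% of all genes did. That gene was Cox8c, which was also the 1 subunit past it between the sides, beside 6.8% of all genes. Below a smaller threshold of 0.25 either way lay most of the subunits. In the contralateral cortex 1 subunit was above 0.25, with 12.7% of all genes, and 2 were below -0.25, with 17.8% of all genes. The ipsilateral cortex had 4 above and 1 below, where all genes had 20.2% above and 13.6% below. Between the sides, no subunit was above 0.25 and 3 were below -0.25, beside 6.12% and 19.1% of all genes. These counts hold for the scaling used. Without scaling, 2 subunits were above 0.25 and 76 below -0.25 in the ipsilateral cortex, and with spike-in scaling 2 and 71. All genes are mostly dimmer than the subunits, so the counts were also set against bright genes.

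**Figure D1:**
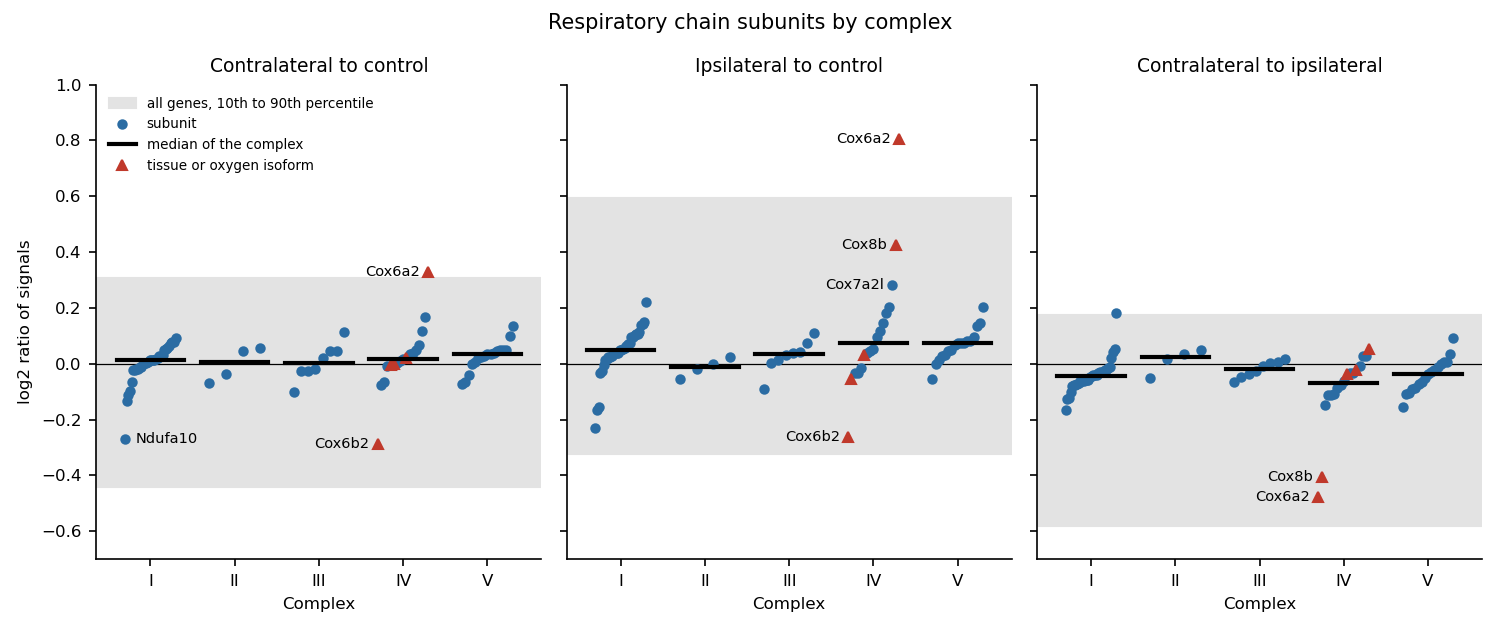
Log2 ratio of signals for the 78 subunit genes well above background on all 3 arrays, by complex, in each comparison. Points are genes, triangles are complex IV isoforms restricted to certain tissues or responsive to oxygen, black bars are the median of all genes of a complex, Cox8c included, and the grey band spans the 10th to the 90th percentile of all 13361 detected genes. Most points lie close to 0, and Cox6a2 lies above the band on both sides against the control group.

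Bright spots vary less than dim ones, and most of the subunits were bright. Of the 79 genes, 72 lay above the 75th percentile of signal among detected genes. Between the 10th and the 90th percentile, the contralateral log2 ratio of these 72 ran from -0.070 to 0.077, and that of all 3341 genes above that percentile ran from -0.13 to 0.21. In the ipsilateral cortex the span was -0.024 to 0.15 for the 72 subunits and -0.14 to 0.21 for the 3341 genes. The subunits thus spread less than other genes of high signal in these pools. Of the 3341 genes, 7 were above 1 and 5 below -1 in the contralateral cortex, and 14 and 2 in the ipsilateral cortex, and the 72 subunits had 0, so few were past this threshold among genes of like signal as well. At 0.25, 209 of the 3341 were above and 129 below in the contralateral cortex, and 198 and 142 in the ipsilateral cortex, beside 0 and 1, and 1 and 1, of the 72. Their medians of 0.019 and 0.048 stood beside medians of 0.041 and 0.036 over the bright genes, below on the contralateral and above on the ipsilateral side. Between the sides, with the scaling used, the medians were -0.042 and 0.0047, and 58 of the 72 and 1578 of the 3341 were below 0.

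The ratios were also set against the signal. Over the 78 genes, the correlation across genes between mean log2 signal and log2 ratio to the control group was r = 0.12 on the contralateral and r = 0.039 on the ipsilateral side. Without the isoforms of complex IV described further on, a choice made after the data were seen, it was r = 0.35 and r = 0.64 over 73 genes. Genes are not independent replicates, and this describes the arrays only. Over all genes the median ipsilateral ratio was likewise not flat, at 0.48 among the dimmest 10% of detected genes, -0.028 just below the middle of the signal range and 0.066 among the brightest 10%. The ipsilateral array was the dimmest of the 3, with a 75th percentile of 1614 against 2103 on the contralateral and 2336 on the control array.

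**Figure D2:**
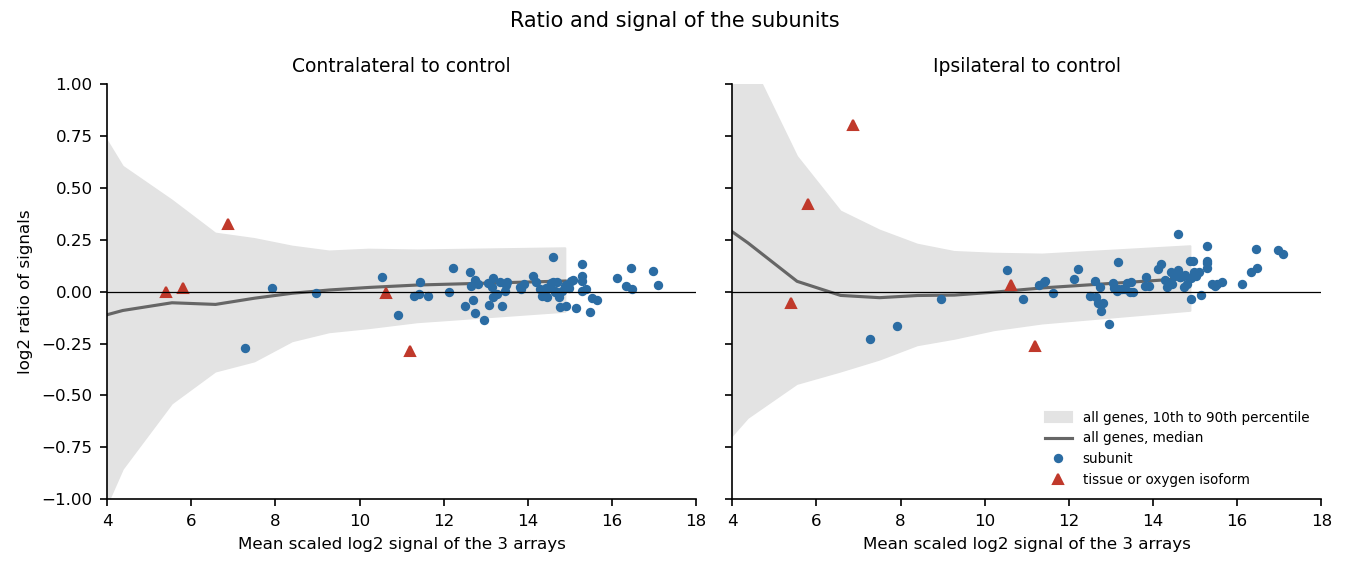
Log2 ratio to the control group against the mean scaled log2 signal of the 3 arrays for the 78 subunit genes, contralateral side on the left and ipsilateral side on the right. The line is the median and the band the 10th to 90th percentile of all detected genes in 10 classes of signal, drawn at the middle of each class. On the ipsilateral side r was 0.039 over all points and 0.64 without the isoforms, and Cox6a2 lies above the band at 0.80.

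The sign of the group medians rested on how the arrays were scaled. In the contralateral cortex the median of 0.018 became -0.13 without scaling, -0.021 with spike-in scaling, -0.036 after quantile normalization, -0.046 after cyclic loess and -0.025 in the values the authors scaled. The ipsilateral median of 0.047 became -0.49, -0.385, -0.0345, -0.034 and -0.010 in the same order. Without scaling the median of all genes shifted as well, to -0.15 and -0.51, and with spike-in scaling to -0.040 and -0.41, so the subunits were also set against all genes on the same scale. That difference of medians was 0.018 and 0.021 under every constant scaling, and it was -0.040 and -0.022 after quantile normalization and -0.049 and -0.032 after cyclic loess. With normexp, where the ipsilateral median of all genes was 0.125, it was -0.031 and -0.088. Between the sides the difference was -0.030 under every constant scaling, -0.029 after quantile normalization, -0.028 after cyclic loess and 0.040 with normexp. The number of subunits above 0 went with the medians. In the contralateral cortex it was 2 without scaling, 65 with scaling to the median, 25 with spike-in scaling, 17 after quantile normalization, 15 after cyclic loess and 25 in the values the authors scaled. In the ipsilateral cortex it was 2, 66, 2, 22, 23 and 34 in that order, and 54 with normexp. Between the sides it was 76, 23, 76, 30, 24 and 22, and the median of -0.042 became 0.34 without scaling and 0.35 with spike-in scaling. The signs of the medians given for single complexes carry the same dependence. No common direction of the subunits against 0 thus held under all scalings. Set against all genes, their median between the sides was lower under each setting but normexp.

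**Figure D3:**
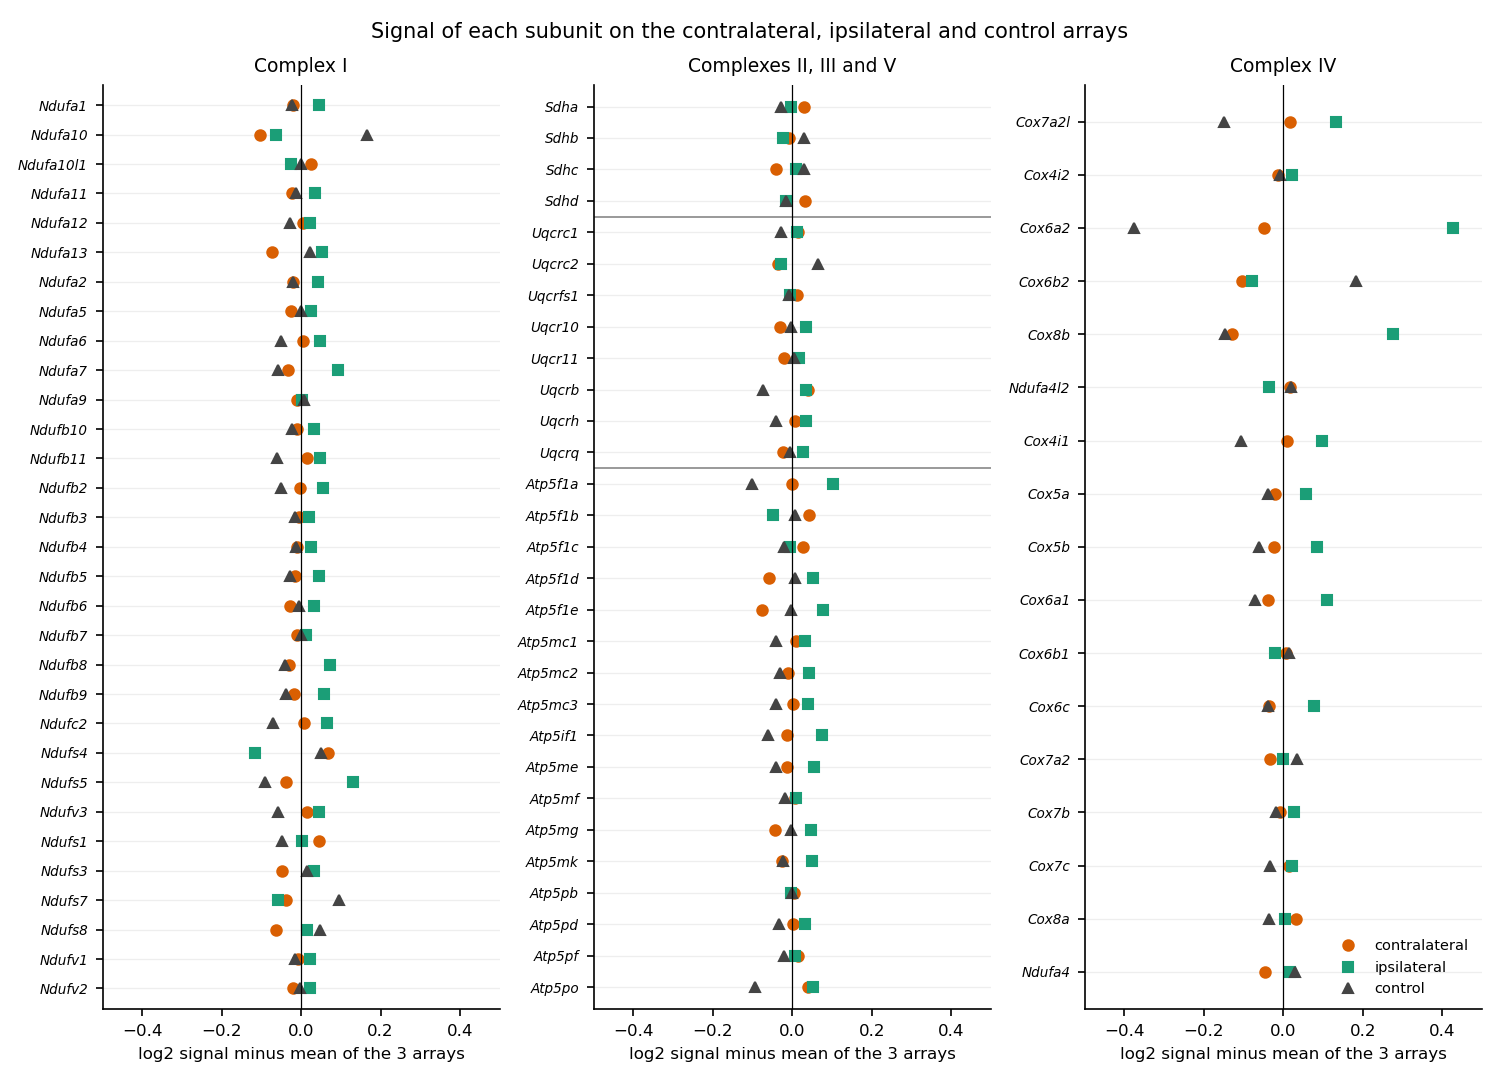
Scaled log2 signal of subunit genes well above background on each array, for the contralateral (circles), ipsilateral (squares) and control (triangles) arrays, given as the distance from that gene's mean over the 3 arrays. The squares lie furthest right for most genes with this scaling and not without it, and the widest gaps are those of Cox6a2, Cox8b, Cox6b2, Cox7a2l and Ndufa10.

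Complex I takes electrons from NADH, and 7 of its core subunits, which carry the flavin and the iron-sulfur clusters, were read. Set against the control group, they had a median of -0.019 in the contralateral and 0.024 in the ipsilateral cortex. Ndufv1, which binds NADH, had log2 signals of 14.39 on the contralateral, 14.42 on the ipsilateral and 14.39 on the control array. Its neighbour in the NADH-binding arm, Ndufv2, read 14.31, 14.35 and 14.33 in the same order. These values did not separate the arrays. Ndufs1, the largest iron-sulfur subunit, read 12.67, 12.62 and 12.57, and at 0.094 it had the highest contralateral log2 ratio of complex I. Ndufs7, which holds the last cluster before ubiquinone, read 12.92, 12.90 and 13.05, lower on both sides than in the control group by values within its scanner error of 0.20. Ndufs3, of the arm that leads to ubiquinone, had log2 ratios of -0.064 contralaterally and 0.017 ipsilaterally, and Ndufs8, another carrier of iron-sulfur clusters, had -0.11 and -0.034.

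The 25 accessory subunits of complex I, which surround the core and are needed for its assembly and stability, had medians of 0.012 and 0.055. Most of them stayed close to the control array, and 3 are named by their rank. Ndufa10 had log2 signals of 7.18 on the contralateral, 7.22 on the ipsilateral and 7.45 on the control array. Its log2 ratios of -0.27 and -0.23 were the lowest of complex I on both sides and exceeded the scanner error of 0.21. Both lay within the 10th to 90th percentile of detected genes of like signal, -0.34 to 0.25 and -0.33 to 0.30. The single probe of Ndufa10 was designed to a predicted transcript, and Ndufa10l1, a second gene of that name read by 2 probes of a curated transcript, had ratios of 0.027 and -0.025. The low values of the first probe thus had no match in the second gene, which was chosen after its values were seen. Ndufs5, a small subunit on the side of the intermembrane space, read 15.26, 15.42 and 15.20 and had the highest ipsilateral ratio of the complex, 0.22. Ndufs4, whose loss in people and mice causes Leigh syndrome, read 7.98, 7.80 and 7.97, and was lowest on the ipsilateral array with a contralateral to ipsilateral ratio of 0.18, within its scanner error of 0.20. For complex I as a whole, 20 of 32 genes were above 0 in the contralateral and 26 in the ipsilateral cortex, with medians of 0.012 and 0.048.

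Complex II, succinate dehydrogenase, is the one complex built from nuclear genes alone, and all 4 of its genes were read. Sdha, the flavoprotein that oxidises succinate, had log2 signals of 12.78 on the contralateral, 12.74 on the ipsilateral and 12.72 on the control array. Sdhb, which holds the iron-sulfur clusters, read 12.68, 12.67 and 12.72. Sdhc and Sdhd, the membrane anchors, read 12.46, 12.51 and 12.53, and 13.55, 13.50 and 13.50. None of the 4 genes differed between arrays by more than 0.071, and 2 were above and 2 below the control array on the contralateral side. The medians were 0.0045 and -0.010 on the contralateral and ipsilateral side. Relative to the median of all subunits, complex II was lower in the ipsilateral cortex by a log2 value of -0.058, the largest such distance of any complex in the ratios to the control group.

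Complex III moves electrons from ubiquinol to cytochrome c. Its core proteins Uqcrc1 and Uqcrc2 read 13.07, 13.07 and 13.02, and 12.72, 12.73 and 12.82, with arrays in the order contralateral, ipsilateral, control. The Rieske iron-sulfur protein Uqcrfs1, which hands electrons to cytochrome c1, read 13.17, 13.15 and 13.14. Both sides were lower than the control group for Uqcrc2, with log2 ratios of -0.10 and -0.091, and the other core genes were not. Among the 5 small subunits, Uqcrb, which lines the ubiquinone site, had the highest ratios of the complex, 0.11 on both sides, and Uqcr10 had the lowest contralateral to ipsilateral ratio, -0.066. The 8 genes had medians of 0.0016 and 0.035, with 4 and 7 above 0.

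Complex IV reduces oxygen, and its nuclear subunits surround the catalytic core that mitochondrial DNA encodes. Cox4i1, the widely expressed isoform of the regulatory subunit that binds ATP, had log2 signals of 16.46 on the contralateral, 16.55 on the ipsilateral and 16.34 on the control array. Cox5a and Cox5b, which sit on the matrix side, read 14.42, 14.49 and 14.40, and 14.94, 15.05 and 14.90. All 3 genes were highest on the ipsilateral and lowest on the control array. Their ipsilateral log2 ratios were 0.20, 0.095 and 0.15, and those of Cox4i1 and Cox5b were just beyond their scanner errors of 0.20 and 0.14. After quantile normalization, the ratio of Cox4i1 was 0.0088. Cox7a2l, which joins complex III to complex IV in supercomplexes, read 14.61, 14.72 and 14.44, and its ratios of 0.17 and 0.28 were the highest of a gene that is not restricted to certain tissues. The ipsilateral ratio of Cox7a2l was -0.25 without scaling and -0.15 with spike-in scaling, where most subunits were lower.

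The other widely expressed subunits of complex IV differed little between arrays. Cox6a1, at the top of the complex, read 17.04, 17.19 and 17.01, and Cox8a, the smallest subunit, read 16.14, 16.11 and 16.07. Cox6b1, which helps the enzyme to pair, read 8.97, 8.95 and 8.98. No array stood out for these genes except the ipsilateral one for Cox6a1, at a log2 ratio of 0.18 within its scanner error. The contralateral ratios of Cox7a2, Cox7b and Ndufa4 were -0.067, 0.0097 and -0.077, and their ipsilateral ratios were -0.035, 0.044 and -0.014. The 11 widely expressed genes had medians of 0.017 and 0.054, with 8 above 0 on each side.

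Some isoforms of complex IV that replace the common subunits in certain tissues held the largest differences, and those that respond to low oxygen did not. Cox6a2, the isoform of heart and skeletal muscle, had log2 signals of 6.82 on the contralateral, 7.30 on the ipsilateral and 6.49 on the control array. The ipsilateral array was highest and the control array lowest for both of its probes. The log2 ratios were 0.33 and 0.80, with a scanner error of 0.15, or 1.25-fold and 1.75-fold. Its probes gave 0.27 and 0.39 on the contralateral side, and 0.77 and 0.83 on the ipsilateral side. Between the sides the ratio was -0.48. The direction against the control group was the same in all 13 other ways of processing that include this gene, and the ipsilateral ratio ranged from 0.27 without scaling to 0.82. Set against Cox6a1, whose product it replaces, the difference of log2 ratios was 0.29 contralaterally and 0.62 ipsilaterally.

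Cox8b, the muscle isoform of the smallest subunit, read 5.66 on the contralateral, 6.07 on the ipsilateral and 5.64 on the control array. It was higher on the ipsilateral array alone, at a log2 ratio of 0.42 with a scanner error of 0.22, and 0.019 on the contralateral side. Detected genes of like signal ran from -0.44 to 0.65 in the ipsilateral ratio, 10th to 90th percentile, so 0.42 lay within their range. Without scaling the ipsilateral ratio of Cox8b was -0.11. Striated muscle markers were set beside these genes. Of 10 read, 7 were well above background on some array, and Myh2, Myh4 and Myl1 were not well above background on any. The list summed to 773 on the contralateral, 869 on the ipsilateral and 817 on the control array, led by Actc1, and its median log2 ratios were -0.065 and -0.019. Of the 7 detected, 5 were below 0 contralaterally and 4 ipsilaterally, and single markers differed in order. Between the sides the median of the list was -0.24, with 5 of the 7 below 0, and it was 0.14 without scaling. Tnnc2 and Tnnt3 had ipsilateral log2 ratios of -0.17 and -0.092. Ckm, chosen after its values were seen, read 4.87, 5.33 and 4.68, highest on the ipsilateral and lowest on the control array as Cox6a2 was. Mb, chosen likewise, had log2 ratios of -0.0013 and 0.24, higher on the ipsilateral array alone as Cox8b was. The part of muscle transcripts in these ratios was not tested.

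Cox6b2, known as an isoform of testis, was lower on both arrays of the MCAO group than on the control array. Its log2 signals were 11.09 on the contralateral, 11.11 on the ipsilateral and 11.38 on the control array. The log2 ratios of -0.29 and -0.26, each with a scanner error of 0.20, were the lowest of all subunits. They kept their sign under all 13 other settings. The common isoform Cox6b1 was dimmer, at 8.97, 8.95 and 8.98. The Cox6b2 probe thus did not read as that of a gene restricted to testis. Each of the 2 genes had 1 probe, and whether these report their genes alike was not tested. Cox8c, another isoform of testis, was read by a single spot that was well above background on the ipsilateral array and on neither other array. Its log2 signal there was 5.29, and it was 0.94 and 0.90 on the contralateral and control arrays. The ipsilateral signal of Cox8c was 4.50-fold the dimmest signal well above background on the control array, and 4.30-fold that on the contralateral array. Some spots not well above background were brighter than these dimmest signals, so the values are not lower bounds. Over 13 other settings the ipsilateral log2 ratio of Cox8c to the control group ran from 0.78 to 4.41. Of 6 spermatid markers, Prm1 and Prm2 were detected and Tnp1, Tnp2, Akap4 and Odf1 were not. The summed signal of all 6, detected or not, was 130 on the contralateral, 179 on the ipsilateral and 103 on the control array, led by Prm1. The log2 ratios were 0.34 and 0.64 for Prm1 and 0.24 and 1.03 for Prm2. The part of this in the value of Cox8c was not tested.

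Cox4i2 and Ndufa4l2 are isoforms that low oxygen induces, and in brain they are known from pericytes. Cox4i2 read 10.61 on the contralateral, 10.65 on the ipsilateral and 10.62 on the control array. Ndufa4l2 read 5.42, 5.37 and 5.43. Neither gene separated the arrays with the scaling used, and their ratios to the control group lay between -0.054 and 0.032. The 2 probes of Ndufa4l2 differed in sign, at 0.097 and -0.10 contralaterally and 0.034 and -0.14 ipsilaterally. Its ipsilateral ratio ranged from -0.59 to 0.30 over 13 other settings. All 10 pericyte and smooth muscle markers were detected, with a summed signal of 2981, 3158 and 3347, led by Kcnj8, and median log2 ratios of -0.23 and -0.12. With all 18 genes, complex IV had medians of 0.018 and 0.075, and without the 6 isoforms medians of 0.026 and 0.075.

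**Figure D4:**
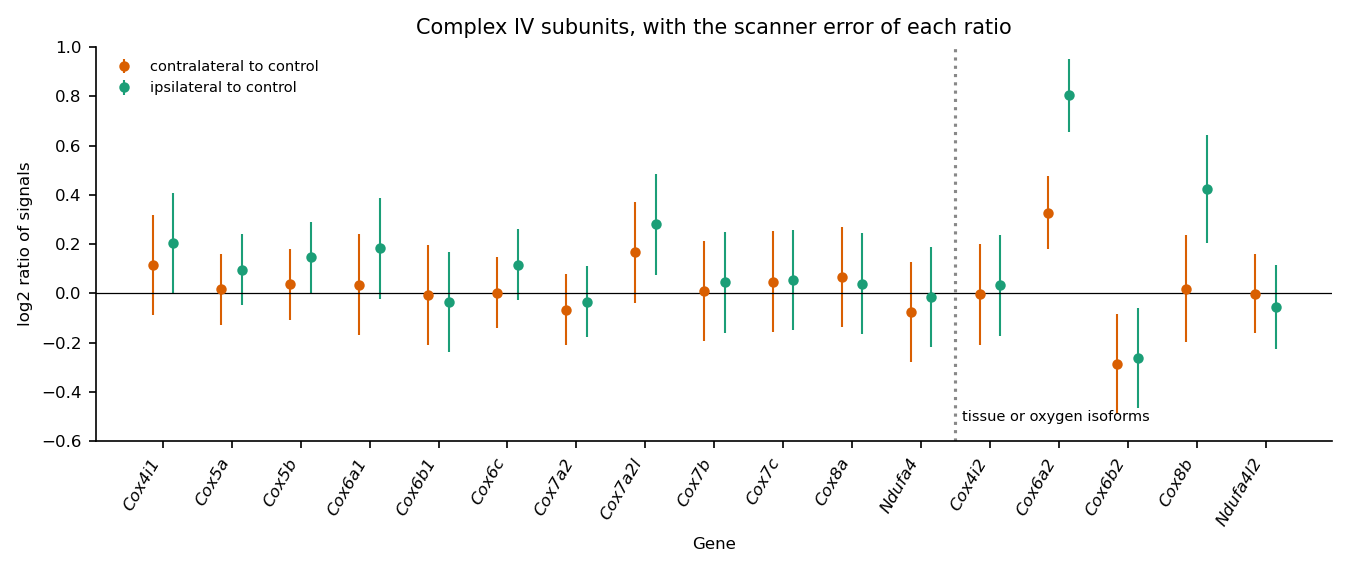
Log2 ratio to the control group of 17 complex IV genes in the contralateral and the ipsilateral cerebellar cortex. Bars are the error that the scanner software gives for each ratio, and genes right of the dotted line are isoforms restricted to certain tissues or responsive to oxygen. Cox6a2 was at 0.33 and 0.80 and Cox6b2 at -0.29 and -0.26, and most other bars cross 0.

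Complex V makes ATP from the proton gradient. Atp5f1a and Atp5f1b, the alpha and beta subunits of the catalytic head, had log2 signals of 16.96, 17.07 and 16.87, and 12.85, 12.76 and 12.82, again for the contralateral, ipsilateral and control array in turn. They differed in order, since the ipsilateral array was highest for Atp5f1a and lowest for Atp5f1b, with log2 ratios to the control group of 0.20 and -0.055. Quantile normalization turned the ipsilateral ratio of Atp5f1a to -0.11. The central stalk, which turns inside the head, was read by 3 genes. Atp5f1c had ratios of 0.049 and 0.015, and Atp5f1d, of -0.066 and 0.044. Atp5f1e read 14.68 on the contralateral, 14.84 on the ipsilateral and 14.76 on the control array, and its contralateral to ipsilateral ratio of -0.15 was the lowest of complex V.

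The c ring, through which protons pass, is encoded by Atp5mc1, Atp5mc2 and Atp5mc3, whose mature proteins are the same. Their contralateral log2 ratios were 0.050, 0.021 and 0.044, and their ipsilateral ratios 0.074, 0.074 and 0.080. These 3 genes lay close to each other on each side. Atp5po, the peripheral stalk protein that confers sensitivity to oligomycin, read 15.33, 15.34 and 15.20 and had the highest contralateral ratio of complex V, 0.13. Atp5if1, the inhibitor that stops the enzyme from running backwards when respiration fails, read 14.17 on the contralateral, 14.26 on the ipsilateral and 14.13 on the control array, with ratios of 0.049 and 0.13 within its scanner error. For complex V as a whole, 13 of 17 genes were above 0 contralaterally and 15 ipsilaterally, and the medians were 0.035 and 0.073.

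The complexes were set side by side. Relative to the median of all subunits, the contralateral medians were -0.0065 for complex I, -0.014 for complex II, -0.0165 for complex III, 0 for complex IV and 0.017 for complex V. On the ipsilateral side they were 0.0004, -0.058, -0.013, 0.028 and 0.026. Between the sides they were -0.0038, 0.066, 0.023, -0.028 and 0.0055. Constant scalings leave these distances as they are. Over 14 other settings, the ipsilateral distance of complex II lay between -0.062 and -0.036, that of complex III between -0.029 and -0.0068 and that of complex IV between 0.0085 and 0.038, and that of complex V lay between -0.010 and 0.027 and changed sign in 2 of them. On the contralateral side complexes II, III and IV did not keep a sign, with distances from -0.018 to 0.0006, from -0.017 to 0.013 and from -0.0031 to 0.025, and complex I was below and complex V above 0 in all. Complex II has 4 genes, so its median rests on few probes.

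**Figure D5:**
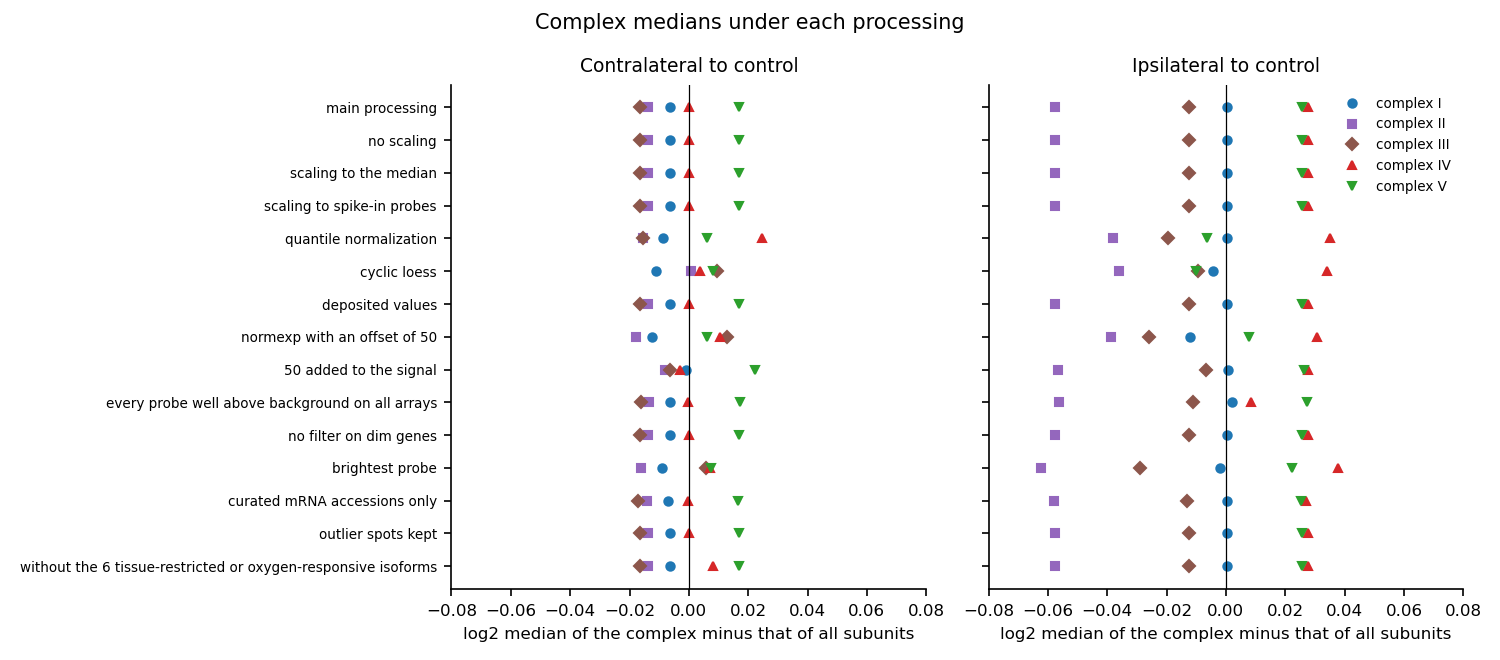
Median log2 ratio to the control group of each complex minus that of all subunits, contralateral side on the left and ipsilateral side on the right, under the processing used in the text and 14 others. On the ipsilateral side complex II lies left of 0, from -0.062 to -0.036, complex III does too, from -0.029 to -0.0068, and complex IV lies right of 0 under each, while complexes I and V change sign, and on the contralateral side complexes II, III and IV do.

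Single genes were also set against their errors. This error was 0.20 for most subunits read by 1 spot and 0.14 for most read by 2, so it followed the number of spots. Cox5b, at an ipsilateral 0.15 from 2 spots, was thus beyond its error, and Cox6a1, at 0.18 from 1 spot, was not. Of the 78 genes well above background, the log2 ratio exceeded the scanner error for 3 in the contralateral cortex, Cox6a2, Cox6b2 and Ndufa10, where 33.5% of the 11260 named genes well above background by every probe did. In the ipsilateral cortex it did for 9, beside 36.2% of these genes, which were these 3 subunits with Cox8b, Cox7a2l, Cox4i1, Cox5b, Atp5f1a and Ndufs5. Between the sides it did for Cox6a2, Cox8b and Atp5f1e, beside 21.3%. Of the 72 bright subunits 1, 6 and 1 were beyond the error, and of the 3341 bright genes 829, 851 and 223. Beyond 2 scanner errors lay 1 subunit in each comparison, beside 12.4%, 14.4% and 7.07% of the 11260 genes. Within 0.1 of no difference were 68, 55 and 64 subunits, beside 44.0%, 42.2% and 58.0%, and the bright genes had 56.9%, 56.7% and 82.4%. Genes read by more than 1 probe numbered 20, and the median gap between their probes was 0.032, 0.064 and 0.058 in the 3 ratios. Ndufv3 had the largest gap against the control group, 0.21 and 0.27. The pseudogene Cox6c-ps1 is left out of these counts, because 1 of its 2 probes was not well above background on any array, and the other had log2 signals of 11.51, 11.60 and 11.51.

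The promoters of 3 isoforms are shown beside those of common subunits, since Cox6a2, Cox6b2 and Cox8b held some of the largest differences. RefSeq gave a window of 300 bases, 250 before and 50 after the start, for 70 of the 79 genes, and these motifs were searched on both strands. CCGGAAG, bound by GABPA and other ETS factors, was in 30.0% of the subunit promoters and in 9.22% of all 27457 promoters. CGCATGCG of NRF1 was in 7 of the 70 and in 1.81% of all, AAGATGGC of YY1 in 20.0% and 3.44%, and AAGGTCA of the ERR receptors in 14.3% and 4.37%. The shares for these regulators of mitochondrial genes were higher in the subunit promoters than in all promoters, and also higher than in the 10917 promoters of detected genes, at 15.1%, 3.0%, 4.73% and 3.21%. GGGCGG of SP1 was in 41.4% and 34.9%, with 55.7% in detected genes, CCAAT of NFY in 34.3% and 37.7%, TATAAA of the TATA box in 8.57% and 14.3%, and CAGCTG, an E box of myogenic factors, in 15.7% and 15.1%. Detected genes had 37.9%, 8.86% and 16.4% for these 3 motifs, close to the subunits. CCGGAAG was in 7 of 29 promoters of complex I, 2 of 4 of complex II, 3 of 6 of complex III, 4 of 15 of complex IV and 5 of 16 of complex V, and in none of the 5 isoform promoters with a window. A match is a description of the sequence and not of binding. The 250 bases before the start of 6 genes follow from 5′ to 3′ on the gene's strand in the GRCr8 build, with the motifs named above in capitals. Cox6a2 lies at chr1:192219717-192219966 on the minus strand, Cox6b2 at chr1:78122621-78122870 on the plus strand and Cox8b at chr1:205408274-205408523 on the minus strand. Cox8a lies at chr1:213833624-213833873 on the minus strand, Cox7a2l at chr6:16936324-16936573 on the plus strand and Atp5po at chr11:44657484-44657733 on the minus strand.
Cox6a2: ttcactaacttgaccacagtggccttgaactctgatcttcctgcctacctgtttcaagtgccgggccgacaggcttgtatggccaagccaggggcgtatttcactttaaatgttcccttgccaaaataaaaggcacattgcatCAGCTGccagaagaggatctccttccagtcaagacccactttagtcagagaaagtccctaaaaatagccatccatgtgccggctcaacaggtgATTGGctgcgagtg
Cox8b: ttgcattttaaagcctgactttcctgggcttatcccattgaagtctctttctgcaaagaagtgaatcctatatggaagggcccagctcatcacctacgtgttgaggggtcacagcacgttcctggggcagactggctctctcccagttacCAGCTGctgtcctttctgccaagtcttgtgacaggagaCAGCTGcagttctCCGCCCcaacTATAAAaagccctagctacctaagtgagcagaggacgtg
Cox6b2: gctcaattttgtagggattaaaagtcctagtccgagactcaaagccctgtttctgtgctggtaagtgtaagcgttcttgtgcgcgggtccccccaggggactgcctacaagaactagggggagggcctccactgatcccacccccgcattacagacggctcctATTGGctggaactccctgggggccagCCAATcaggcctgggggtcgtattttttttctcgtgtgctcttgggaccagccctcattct
Cox8a: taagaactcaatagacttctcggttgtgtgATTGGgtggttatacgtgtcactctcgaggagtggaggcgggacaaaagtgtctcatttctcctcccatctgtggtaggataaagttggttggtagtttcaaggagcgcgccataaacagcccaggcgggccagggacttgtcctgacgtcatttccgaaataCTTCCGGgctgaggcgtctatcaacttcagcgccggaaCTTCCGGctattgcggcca
Cox7a2l: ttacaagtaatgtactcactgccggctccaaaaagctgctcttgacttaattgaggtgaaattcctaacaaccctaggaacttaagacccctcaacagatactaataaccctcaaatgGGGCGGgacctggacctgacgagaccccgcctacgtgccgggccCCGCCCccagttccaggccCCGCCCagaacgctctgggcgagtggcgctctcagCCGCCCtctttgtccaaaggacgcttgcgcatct
Atp5po: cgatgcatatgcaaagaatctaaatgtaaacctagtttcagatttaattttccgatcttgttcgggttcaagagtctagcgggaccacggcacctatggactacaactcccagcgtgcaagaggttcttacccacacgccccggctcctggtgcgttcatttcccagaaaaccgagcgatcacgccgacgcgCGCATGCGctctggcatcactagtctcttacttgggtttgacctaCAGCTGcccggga
In the bases shown, the muscle isoforms Cox6a2 and Cox8b hold the E box, 1 copy in Cox6a2 beside an NFY motif, and 2 in Cox8b, which also has the TATA box and an SP1 motif. Cox6b2 has 2 NFY motifs, Cox8a has 2 ETS motifs and an NFY motif, Cox7a2l has 4 SP1 motifs, and Atp5po has an NRF1 motif and an E box. The whole windows also hold a YY1 motif in Atp5po and in Cox8a and an ERR motif in Cox8a, which reach past the bases shown.

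Genes that serve the same pathway without being counted as its subunits were described in the same way. The highest and lowest of each list are given among genes well above background by every probe on all arrays, and Cox11, Cyct, Perm1, Esrrg and Slc25a27, chosen after their values were seen, lay further out but did not meet this. Of 56 symbols listed for assembly factors, which build the complexes, 45 were read and detected. Their median log2 ratios were -0.012 and 0.016 in the contralateral and ipsilateral cortex, with 21 and 24 genes above 0. Taco1, needed to translate a mitochondrial complex IV subunit, was highest of those ranked, with log2 signals of 6.52, 6.42 and 6.17 and ratios of 0.35 and 0.24. Pet100, a factor of complex IV, ranked lowest on the contralateral side at -0.21, and Atpsckmt, a methyltransferase that acts on the c ring, on the ipsilateral side at -0.24. The 19 subunits and electron carriers outside the symbol pattern that were read had medians of -0.0041 and 0.016. Of those ranked, Coq8a, of ubiquinone synthesis, was highest at 0.38 and 0.35, and Coq4, of the same pathway, was lowest on the contralateral side at -0.43. Gpd2, which feeds electrons from glycerol phosphate to ubiquinone, was lowest on the ipsilateral side at -0.38. The ipsilateral ratios of Taco1 and Coq8a were -0.29 and -0.18 without scaling. The mitochondrially encoded subunits, listed under 26 symbols with more than 1 spelling for each, had 0 read and were not analysed here.

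Regulators of mitochondrial biogenesis numbered 24 detected of 25 read, with median log2 ratios of 0.055 and 0.041. Nrf1 and Gabpa, whose products bind promoters of the subunit genes, had contralateral ratios of -0.012 and 0.014 and ipsilateral ratios of -0.0026 and 0.11. Esrra, a nuclear receptor for the same genes, had ratios of 0.047 and 0.10, and Tfam, which packs mitochondrial DNA, of 0.063 and 0.0074. All of these were within the scanner error. Ppargc1a, the coactivator of these factors, read 6.56 on the contralateral, 6.20 on the ipsilateral and 6.49 on the control array, and its ipsilateral ratio of -0.30 was the lowest of those ranked. Mterf2, of mitochondrial transcription, ranked highest at 0.32 and 0.35, and its ipsilateral ratio was -0.19 without scaling. Polg2, of the mitochondrial DNA polymerase, ranked lowest on the contralateral side at -0.10. For the exchange of ATP and ADP, 19 of 20 genes read were detected, and 14 and 15 of them were above 0, with medians of 0.090 and 0.099. Ucp3, an uncoupling protein best known from muscle, ranked highest, with log2 signals of 5.76 on the contralateral, 5.70 on the ipsilateral and 4.75 on the control array. It was higher on both arrays of the MCAO group than on the control array, at 1.01 and 0.95 with scanner errors of 0.23 and 0.24. Over 13 other settings these ratios stayed above 0, from 0.44 to 1.05 contralaterally and from 0.41 to 0.97 ipsilaterally. Slc25a24, a carrier of ATP, ranked lowest, at -0.29 and -0.23. Of 8 markers of forebrain neurons, 6 were detected, with a summed signal of 6903, 6796 and 5767, led by Ppp1r1b, and medians of 0.32 and 0.18. Single genes differed, and Nrgn, chosen after its values were seen, was at 1.83 contralaterally and -0.21 ipsilaterally. The part of this in the subunit values was not tested.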

How the data were processed

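RNA of 3 samples, each of tissue combined from 4 rats, was measured on 1-colour arrays, 1 array per group, on 1 slide. Agilent Feature Extraction (12.1.0.3 per the file headers) was the software with which the authors read the spots, and they deposited the processed intensity of each spot, background-subtracted and not scaled between arrays. The authors also deposited the same intensity values multiplied by 1 factor per array. From these, log2 signals were shifted to a common 75th percentile, the 759 outlier spots were left out, and spots of a probe and then probes of a gene were averaged. Accessions were named by the RefSeq table of the GRCr8 assembly (17622 of 39957 matched), since the files have no gene name column, and normexp was run on median signals, which differs from the plan. The arrays number 1 per group, which limits the precision, so no test was run. Errors of ratios came from the scanner software.

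Genes named were the catalytic and core subunits, the isoform families, the highest and lowest member of each complex in each ratio where all arrays were well above background, members past a log2 ratio of 1 or not well above background on some array, 5 transcription regulators and the highest and lowest member of each other list under the same limit. Any further gene was picked with its values in view or spells out a count of few genes. The members and lists were chosen with earlier results of these data known. The 13 other settings set out in the plan covered scaling, background, filters and probes, and 1 that leaves out 6 isoforms was added after the data were seen. Python 3.11.15 with numpy 2.4.6, pandas 2.3.3 and matplotlib 3.10.9 did the calculations and figures. Normalization by quantile, cyclic loess and normexp ran in limma 3.58.1 under R 4.3.3. The calculations were tested on simulated data. Values of single genes that are not named are not reported here.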

Additional observations from a re-analysis of the deposited data

Results flagged for a closer look

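The epsilon subunit gene of the ATP synthase stalk, Atp5f1e, stood at -0.074 in the contralateral and 0.080 in the ipsilateral cerebellar cortex as log2 ratios to the control group. It stood out because the sides differed from the control array in opposite directions, each by more than the 0.066 between spots of a probe. Both values were within the scanner error of 0.14, and the ipsilateral one was negative under 4 other settings. The coactivator gene Ppargc1a stood out in the same way, at 0.070 in the contralateral and -0.30 in the ipsilateral cortex, with scanner errors of 0.21. Its ipsilateral value was 0.035 with normexp. With 1 array per group and a shared control array, neither difference between the sides was tested.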

How the results depend on the processing

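The results that answer a comparison were set against 14 other settings. Of 336 values, 311 stayed within the spread between spots or, for counts, within 1.5-fold. The other 25 moved, and each median among these changed sign. The tally says little about the distances of the complexes from all subunits. None of them moved, but most were smaller than that spread, and constant scalings cannot change them. Some changed sign without counting as moved, as that of complex III in the contralateral cortex, from -0.017 to 0.013. Without scaling the medians of all subunits were -0.13 in the contralateral cortex, -0.49 in the ipsilateral cortex and 0.34 between the sides, and the counts of subunits beyond 0.25 were 5, 78 and 74. With spike-in scaling the ipsilateral median was -0.385 and that between the sides 0.35, with 73 and 74 subunits beyond 0.25. The ipsilateral median was -0.0345 after quantile normalization and -0.034 after cyclic loess. Both normexp with an offset of 50 and 50 added to the signal left 1 subunit beyond 0.25 in the contralateral cortex, and 0 beyond 1 in the ipsilateral cortex and 0 between the sides. When each probe had to be well above background on each array, 0 were beyond 1 in the ipsilateral cortex and 0 between the sides. Without the 6 isoforms, a setting added after the data were seen, 1, 1 and 0 subunits were beyond 0.25 in the contralateral cortex, in the ipsilateral cortex and between the sides, and 0 were beyond 1 in the ipsilateral cortex and 0 between the sides. For each of these the cause was not tested. No paired analysis was possible because the labels give no replicate numbers and there was 1 array per group.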
